A study of Mus musculus with 39 samples.

Results

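Border-associated macrophages (BAM) and microglia of the mouse brain were compared at E18.5, the last embryonic stage of the series. The comparison rested on 8 of the 39 libraries, 4 labelled BAM and 4 labelled microglia, taken by their labels and library names alone, and on all 22061 genes with enough counts to be tested. E18.5 BAM and E18.5 microglia both came from brains of C57Bl/6 embryos, and no allele, genotype or treatment beyond that strain was given for either. The females had been time-mated, with the day of the plug as E0.5. The macrophages had been sorted by flow cytometry on surface proteins that the labels do not name, so a transcript whose protein set a gate would differ by selection. E16.5 BAM and E16.5 microglia of the same strain, 3 libraries each, served to test whether the difference between the populations changed between these stages. The labels do not say which libraries came from separate embryos, litters or pools, so the p-values measure only the spread between these samples, which may be technical. For every transcript, fewer cells that carry it and less RNA per cell cannot be told apart.

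Microglia live among the neurons and glia of the brain itself, whereas BAM occupy its borders, in the meninges, the perivascular spaces and the choroid plexus. In the mouse both arise largely from the yolk sac, and both need the receptor CSF1R to survive. Microglia are known for their dependence on TGF-beta and for clearing dying cells and synapses, and BAM for taking up proteins and debris from blood and cerebrospinal fluid through endocytic receptors such as CD163, CD206 and LYVE1.

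The BAM libraries held 18418771 to 22629093 counts and 19759 to 22232 detected genes, and the microglia libraries 10692763 to 23532554 counts and 19679 to 21721 detected genes. Levels are in CPM, counts relative to the library total scaled by TMM factors, and are listed for replicates 1 to 4 in that order. Across genes, which are not independent replicates, log2 CPM correlated at r = 0.948 to 0.970 between BAM libraries and at 0.946 to 0.975 between microglia libraries. Between a BAM and a microglia library the same r was 0.795 to 0.845. Replicate 1 of each population had a library number beginning with R10 and the other 3 a number beginning with R8, a split whose meaning the labels do not state. Replicate 3 of microglia, and less so replicate 3 of BAM, stood apart in immediate early and inflammatory transcripts. Values without both replicate 3 libraries are therefore given beside those groups.

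Both populations had the transcripts of brain macrophages among their most abundant. Levels were divided here by the gene length given with the counts, which is not the length of 1 transcript. Apoe, which encodes a lipid carrier, led with 8856 CPM per kb in BAM and 7328 in microglia. That difference did not pass the test (adjusted p = 0.542). C1qb, a chain of the complement starter C1q, stood at 2865 CPM per kb in BAM and 4031 in microglia (adjusted p = 0.154, and 0.00521 with pairs of adjacent library numbers as a block). F13a1, which encodes the coagulation factor XIII A chain, ranked among the 12 most abundant in BAM with 1560 CPM per kb, against 14.8 in microglia. All 25 listed BAM markers were called higher in BAM, where 6.7% of all tested genes were, and 24 of 25 listed microglia markers were called lower, where 8.75% were. The remaining microglia marker, Ltc4s of leukotriene synthesis, differed by -0.03 ± 0.26 on the log2 scale (adjusted p = 0.975). These markers were known from earlier results and check the labels only.

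At E18.5, 1478 genes were called higher in BAM and 1930 lower (edgeR quasi-likelihood test, adjusted p under 0.05). These are 6.7% and 8.75% of all tested genes, the shares beside which every list count below is to be read. In 1322 of the 1478 higher genes and in 1719 of the 1930 lower genes the BAM libraries did not overlap the microglia libraries, against 9.76% of all tested genes with BAM above and 11.4% with BAM below. The median log2 difference over all tested genes was 0.01, and every difference below is BAM minus microglia with its standard error. Many differences were large, with 386 genes called and at least 4-fold higher in BAM and 431 at least 4-fold lower. At 32-fold or more, 88 genes were higher and 70 lower. Of the called genes, 3122 were protein coding, 59 were lincRNAs and 43 were annotated antisense. Within the R8 libraries alone, 3 a side, 1134 genes were called higher and 1468 lower. The R10 pair alone, 1 library a side with the spread taken from the other groups, gave 487 and 564.

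**Figure D1:**
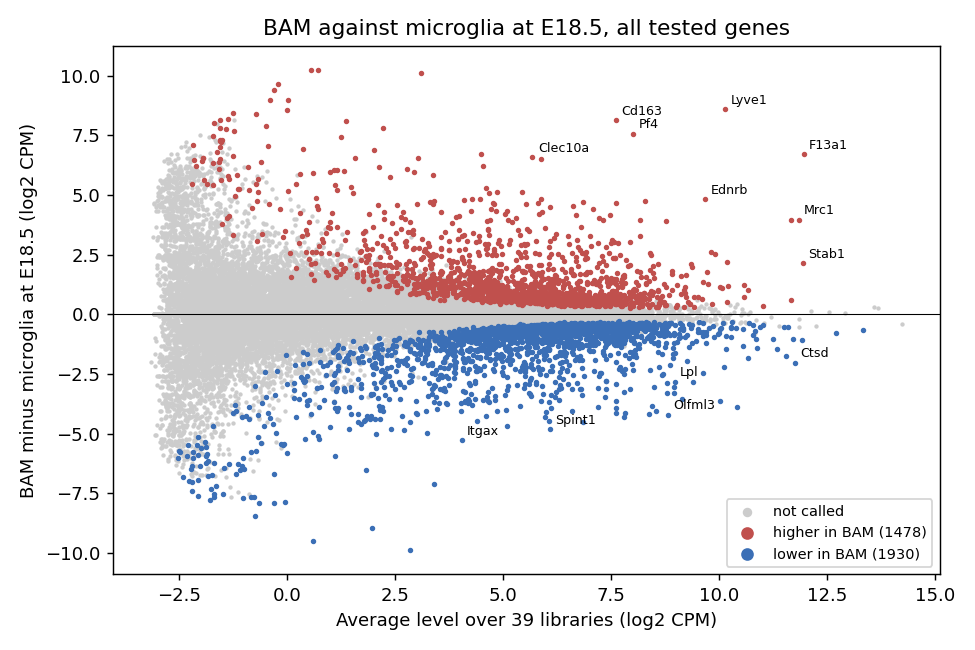
Log2 difference, BAM minus microglia at E18.5, against average log2 CPM over the series, 1 point per tested gene, with the 1478 genes called higher in BAM and the 1930 called lower drawn in colour. Of the called genes that averaged 4 or more on the horizontal axis, Lyve1 at 8.59 and Itgax at -5.28 are the most extreme, and the wider differences lie at lower levels, where many did not pass the test.

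The leading BAM transcripts encoded receptors for uptake, a platelet-type chemokine and vascular signalling proteins. Lyve1, the hyaluronan receptor, had 4155, 3816, 2843 and 2984 CPM in BAM and 1.61, 8.29, 15.2 and 11.1 CPM in microglia. Cd163, the receptor for haemoglobin bound to haptoglobin, had 1419, 1339.9, 1046 and 1232 CPM in BAM and 1.80, 1.73, 7.04 and 7.08 CPM in microglia. No BAM library came near a microglia library for either gene, and the log2 differences were 8.59 ± 0.72 (adjusted p = 2.06e-11) and 8.14 ± 0.83 (adjusted p = 1.56e-09). Pf4, which encodes platelet factor 4, had 909, 778, 772 and 606 CPM in BAM and 2.27, 2.31, 7.52 and 4.07 CPM in microglia, a difference of 7.57 ± 0.77 (adjusted p = 1.69e-09). F13a1 had 11769, 10868, 9247 and 10175 CPM in BAM and 91.6, 66.7, 130.3 and 111 CPM in microglia, a difference of 6.72 ± 0.45. The galactose lectins Clec10a and Mgl2 were higher by 6.58 ± 0.62 and 6.50 ± 0.59.

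Further leading genes of BAM encoded receptors, enzymes and signalling proteins. Rgs18, a brake on G protein signalling best known from platelets, had 50.1, 37.5, 33.6 and 32.8 CPM in BAM and 0.663, 0, 0.557 and 0.106 CPM in microglia (difference 6.71 ± 0.58). Ednrb, a receptor for endothelins, had 1398, 1151, 1049.8 and 1069.8 CPM in BAM and 40.8, 47.3, 41.5 and 35.5 CPM in microglia (4.82 ± 0.29). Npr1, the receptor for atrial natriuretic peptide, was higher by 5.12 ± 0.46, and Bmp2, a bone morphogenetic protein, by 5.10 ± 0.55. Cd4, the co-receptor of helper T cells that some macrophages also carry, was higher by 6.22 ± 1.04. Nlrc4, an inflammasome sensor, was higher by 5.29 ± 0.45, the metalloprotease Adam33 by 5.11 ± 0.54, Ms4a14 by 4.84 ± 0.71 and the receptor phosphatase Ptprk by 4.82 ± 0.50. All of these were called, and their BAM libraries lay above every microglia library. Without microglia replicate 3 the differences of Cd4, Nlrc4 and Ms4a14 were 7.13, 6.17 and 5.71, and without microglia replicate 1 that of Rgs18 was 7.36.

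The leading genes lower in BAM encoded a microglial growth factor, a sugar transporter and adhesion proteins. Itgax, which encodes the integrin CD11c, had 2.08, 0.335, 2.93 and 1.85 CPM in BAM and 75.9, 52.9, 74.7 and 79.9 CPM in microglia (difference -5.28 ± 0.71, adjusted p = 4.79e-07). Slc2a5, a fructose transporter that marks microglia, had 13.1, 17.2, 14.3 and 20.02 CPM in BAM and 481, 349.7, 328 and 319.7 CPM in microglia (-4.52 ± 0.28, adjusted p = 1.16e-14). The groups stood far apart, and the BAM level was low but not 0. Spint1, an inhibitor of cell-surface serine proteases, was lower by 4.82 ± 0.40 on the log2 scale and Serpine2, an inhibitor of thrombin, by 4.17 ± 0.38. Cxcr2, a receptor for neutrophil-attracting chemokines, was lower by 4.46 ± 0.50, and Gpr84, a receptor for medium-chain fatty acids, by 4.08 ± 0.34. Npnt, an integrin ligand of the extracellular matrix, was lower by 4.32 ± 0.48, the integrin chain Itgb3 by 4.25 ± 0.62, the secreted protein gene Olfml3 by 4.20 ± 0.30 and the microglia marker Tmem119 by 4.06 ± 0.24. For each of these genes all 4 BAM libraries lay below all 4 microglia libraries. The difference of Itgb3 was -5.18 without BAM replicate 1.

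**Figure D2:**
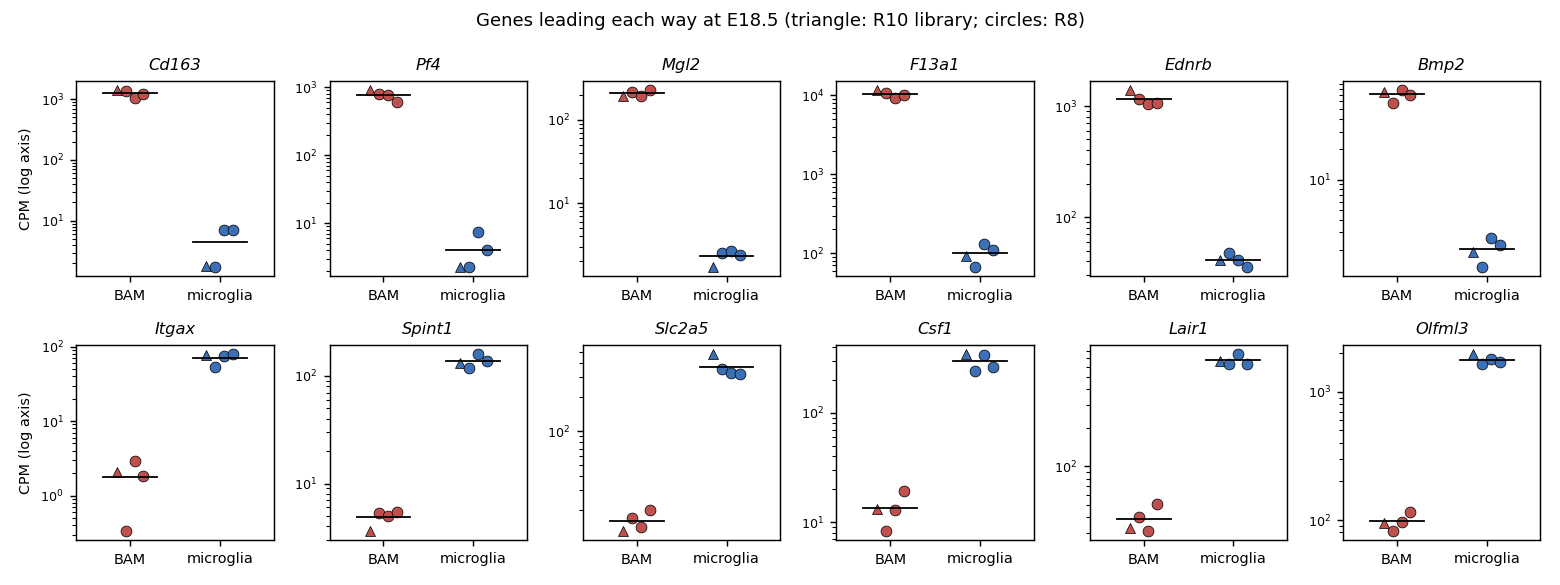
Level in CPM (log axes that do not start at 0) of 12 leading genes in each E18.5 library, with the 4 BAM libraries left of the 4 microglia libraries, a bar at each mean and the R10 library as a triangle. Cd163 stands at 1046 to 1419 CPM in BAM, against 1.73 to 7.08 CPM in microglia, and Slc2a5 at 13.1 to 20.0 CPM in BAM, against 320 to 481 CPM in microglia.

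The start-site regions of 5 of these leading genes are printed as examples of promoters that hold the motifs below, and they were picked because each holds a match. Each covers 250 bases before the annotated start and 50 after it, read 5′ to 3′ on the gene's own strand, from RefSeq on GRCm38.p6. Capitals mark matches on either strand to GAGGAA, the core bound by PU.1, the master regulator of macrophages, or to TGANTCA, the site bound by AP-1 factors such as JUN and FOS. Pf4 lies at chr5:90772185-90772484 on the plus strand, Mgl2 at chr11:70130107-70130406 on the plus strand, Spint1 at chr2:119237110-119237409 on the plus strand, Il1a at chr2:129309923-129310222 on the minus strand and F11r at chr1:171437311-171437610 on the plus strand. Pf4 and Mgl2 were higher in BAM and the other 3 lower.
Pf4: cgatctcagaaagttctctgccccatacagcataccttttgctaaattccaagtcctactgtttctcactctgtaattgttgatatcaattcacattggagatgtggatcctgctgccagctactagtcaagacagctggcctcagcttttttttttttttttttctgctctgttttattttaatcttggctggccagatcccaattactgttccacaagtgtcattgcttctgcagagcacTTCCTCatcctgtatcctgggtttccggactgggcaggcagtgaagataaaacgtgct
Mgl2: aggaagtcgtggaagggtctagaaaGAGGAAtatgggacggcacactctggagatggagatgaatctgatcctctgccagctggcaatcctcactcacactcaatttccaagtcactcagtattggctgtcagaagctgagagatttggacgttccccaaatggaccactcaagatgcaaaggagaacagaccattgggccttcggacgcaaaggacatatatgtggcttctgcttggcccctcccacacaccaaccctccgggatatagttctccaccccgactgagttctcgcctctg
Spint1: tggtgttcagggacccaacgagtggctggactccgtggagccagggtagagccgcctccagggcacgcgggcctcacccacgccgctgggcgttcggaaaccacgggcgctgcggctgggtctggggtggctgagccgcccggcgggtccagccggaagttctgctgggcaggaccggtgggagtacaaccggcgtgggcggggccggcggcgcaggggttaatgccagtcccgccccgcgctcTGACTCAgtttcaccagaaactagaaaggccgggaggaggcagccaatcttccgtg
Il1a: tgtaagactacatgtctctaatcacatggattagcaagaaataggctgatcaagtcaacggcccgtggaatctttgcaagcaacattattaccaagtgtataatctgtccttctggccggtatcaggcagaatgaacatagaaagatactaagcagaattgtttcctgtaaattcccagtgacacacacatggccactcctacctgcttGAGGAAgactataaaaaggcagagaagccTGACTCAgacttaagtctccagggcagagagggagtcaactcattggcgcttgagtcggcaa
F11r: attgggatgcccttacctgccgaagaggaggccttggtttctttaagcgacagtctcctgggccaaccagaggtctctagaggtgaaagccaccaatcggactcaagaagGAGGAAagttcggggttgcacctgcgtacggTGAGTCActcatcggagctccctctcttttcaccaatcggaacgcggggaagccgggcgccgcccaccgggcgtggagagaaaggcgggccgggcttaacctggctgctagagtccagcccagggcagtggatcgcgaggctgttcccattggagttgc
Pf4 held a PU.1 core whose match begins at position -8 from the start, and Mgl2 one at -225. Spint1 held an AP-1 match at -6. Il1a, which encodes interleukin 1 alpha, held a PU.1 core at -41 and an AP-1 match at -12, and F11r, which encodes the junctional adhesion molecule A, held a PU.1 core at -140 and an AP-1 match at -109. Neither motif is rare: of the 27025 promoters of this length in the table, 28.3% held GAGGAA and 7.93% held TGANTCA. Among promoters of genes called higher in BAM the PU.1 core was in 27.7% and the AP-1 site in 5.49%, and among those called lower in 30.3% and 4.37%. Of the 15 leading genes each way, 6 of the 9 higher genes with a promoter and 4 of the 12 lower ones held the PU.1 core, and 1 of 9 and 4 of 12 the AP-1 site. The 2 motifs do not overlap, they were picked from 8 searched after the matches were seen, and a match is a description of letters, not a bound site.

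Within the sorted cells, the transcript of a ligand of CSF1R differed more than that of the receptor, which both populations need. Ligand made by other cells was not measured. Csf1, which encodes a ligand of CSF1R, had 13.3, 8.31, 12.97 and 19.2 CPM in BAM and 346, 239, 335 and 260.0 CPM in microglia, a difference of -4.45 ± 0.32 (adjusted p = 6.21e-13). Csf1r itself had 7086, 7965, 6474 and 7406 CPM in BAM and 14417, 12013, 11822 and 11516 CPM in microglia, a difference of -0.78 ± 0.10 (adjusted p = 3.16e-07). The groups did not overlap for either gene, and the receptor was abundant in all 8 libraries. Of the 24 tested growth factor and receptor genes, 4 were called higher and 9 lower, with a median of -0.25. Bmp2 had 74.9, 58.4, 78.0 and 69.4 CPM in BAM and 1.89, 1.35, 2.65 and 2.22 CPM in microglia. Nrp1, a co-receptor of VEGF and semaphorins, was higher by 1.01 ± 0.14, and Tgfa, a ligand of the EGF receptor, was lower by 1.90 ± 0.30.

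Genes of the TGF-beta pathway, on which microglial identity depends in the mouse, were mostly lower in BAM or not called. Of 22 tested, 1 was called higher and 7 lower, with a median of -0.29. Tgfbr1, the type I receptor, had 134, 149, 100.2 and 159 CPM in BAM and 1106, 1014, 892 and 924 CPM in microglia (-2.86 ± 0.28, adjusted p = 6.54e-10). Skil, a target and inhibitor of the pathway, had 27.8, 19.3, 27.1 and 20.9 CPM in BAM and 183, 158, 236 and 155 CPM in microglia (-2.94 ± 0.25). Each BAM library was below each microglia library for both genes. Itgb5, a chain of an integrin that activates latent TGF-beta, was lower by 1.99 ± 0.19, the signal carrier Smad3 by 0.88 ± 0.14 and Pmepa1, a target that dampens the signal, by 2.65 ± 0.43. Bmp2, counted among growth factors above, belongs to the same superfamily and was higher.

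Genes of endocytosis were often higher in BAM. Of 24 tested genes of clathrin-mediated uptake and sorting, 13 were called higher and 2 lower, with a median of 0.71. Ap2a2, a subunit of the adaptor that links cargo to clathrin, had 916, 992, 897 and 867 CPM in BAM and 223, 191, 215 and 216 CPM in microglia (2.12 ± 0.14, adjusted p = 3.94e-14). Eps15, a scaffold of coated pits, was higher by 1.81 ± 0.15, and Fcho2, which bends the membrane as pits form, by 1.27 ± 0.13. Ap2m1, the subunit that reads tyrosine signals on cargo, was higher by 1.14 ± 0.15, and Rab11a, of recycling endosomes, by 0.77 ± 0.12. Dab2, a cargo adaptor of the same route and a BAM marker, had 5960.4, 4804, 3886 and 4501 CPM in BAM and 380.4, 264, 289 and 298 CPM in microglia. Of 16 tested subunits of the vacuolar proton pump, which acidifies endosomes and lysosomes, 5 were called higher and 1 lower (0 lower without BAM replicate 2 or 4 or microglia replicate 2 or 3, 2 without microglia replicate 4 or with the pairs as a block; median 0.14), with Atp6v1a higher by 0.80 ± 0.12 and Atp6v0a1 by 0.65 ± 0.12.

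Scavenger receptors were split between the populations. The list of 17 tested genes leaves out Cd163 and Mrc1, which are counted among the BAM markers and were called higher. Within the list, 3 were called higher in BAM and 7 lower (median -0.92), so these counts do not cover the whole family. Msr1, which takes up modified lipoproteins, had 537, 461, 375 and 435 CPM in BAM and 25.7, 13.3, 26.1 and 20.4 CPM in microglia (4.40 ± 0.32), and Cd36, which binds oxidised lipids and fatty acids, had 298, 264, 248 and 249.7 CPM in BAM and 20.5, 11.9, 15.3 and 11.47 CPM in microglia (4.16 ± 0.38). On the other side Lrp1, a large receptor for lipoproteins and proteases, had 337, 437, 329 and 328 CPM in BAM and 1411, 1471, 1268 and 1338 CPM in microglia (-1.94 ± 0.15, adjusted p = 2.91e-12). Scarb2, which carries glucocerebrosidase to lysosomes, was lower by 1.35 ± 0.12, and Scarb1, a receptor for high-density lipoprotein, by 0.92 ± 0.12. Colec12, a scavenger receptor of the collectin type and a BAM marker, had 767, 748, 620.5 and 644 CPM in BAM and 31.8, 22.7, 23.9 and 25.2 CPM in microglia, and Mrc1, which encodes CD206, had 9512, 9503, 7733 and 9289 CPM in BAM and 651, 531, 519.7 and 598 CPM in microglia. Microglia thus still carried Mrc1 counts in every library, at a level far below BAM.

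C-type lectins, which bind sugars, were higher in BAM in 6 of 16 tested genes (3 in the R8 libraries alone) and lower in 2 (median 0.54). That list leaves out Mrc1, Clec10a and Mgl2, which are counted among the BAM markers and were called higher. Clec4a1 had 349, 331, 280.0 and 334 CPM in BAM and 42.9, 31.4, 56.6 and 49.5 CPM in microglia (2.84 ± 0.25), and Clec4a2 was higher by 1.42 ± 0.22. Clec5a and Clec7a, which encode activating receptors of myeloid cells, the last known as Dectin-1, were lower by 1.23 ± 0.17 and 1.38 ± 0.26. Cd209b, of the DC-SIGN family, had 318 counts over the BAM libraries and 0 over the microglia libraries, at least 81.9-fold higher when 3 counts are placed over the microglia group, although DESeq2 did not call it (adjusted p = 0.0588). Cd209f of the same family had 3311 counts in BAM and 2 in microglia, both in replicate 1, a ratio of 1279 with a 95% counting interval of 354 to 10568. These are close relatives in a cluster of similar genes, and reads shared among them could have been split in counting. Of 8 tested Ms4a genes, membrane proteins with 4 spans, 3 were called higher and 1 lower (0 lower without microglia replicate 3), and Ms4a4a had 636, 607, 546 and 512 CPM in BAM and 36.3, 25.7, 51.8 and 33.9 CPM in microglia.

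Receptors for antibodies were also split. Fcgrt, the neonatal Fc receptor that recycles immunoglobulin G and albumin, had 1927, 2312, 2004 and 2020.2 CPM in BAM and 374, 343, 394 and 337 CPM in microglia (2.51 ± 0.22, adjusted p = 3.18e-11). Fcgr2b, the inhibitory Fc receptor, was higher by 2.35 ± 0.20, with 821, 827, 835 and 833 CPM in BAM and 168, 153, 172 and 158 CPM in microglia. Fcgr4, an activating receptor, was lower by 1.69 ± 0.25, as was Fcrl1, of the Fc receptor-like family, by 1.93 ± 0.27. In all, 2 of 8 tested Fc receptors were called higher (4 with the pairs as a block) and 2 lower (median 0.33).

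Iron and haem handling was another group with more members higher in BAM, 7 of 18 tested against 3 lower, with a median of 0.65. Both biliverdin reductases, which turn the product of haem breakdown into bilirubin, were higher. Blvrb had 179, 240.3, 253 and 223 CPM in BAM and 25.9, 30.4, 45.4 and 35.1 CPM in microglia (2.71 ± 0.29, adjusted p = 4.94e-09), and Blvra 189, 256, 248 and 254 CPM in BAM and 57.7, 56.5, 64.1 and 64.6 CPM in microglia (1.96 ± 0.24). Ncoa4, the receptor that sends ferritin to autophagy, was higher by 0.83 ± 0.12, Slc48a1, a haem transporter of lysosomes, by 0.70 ± 0.11, and Cp, which encodes the ferroxidase ceruloplasmin, by 2.47 ± 0.42. Cd163, the haemoglobin scavenger, was among the leading BAM genes above.

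Genes for the uptake of dying cells were lower in BAM more often than higher, 8 of 15 tested against 3 (median -0.61). Axl and Mertk, the receptor kinases that recognise bridged phosphatidylserine, were both lower, Axl by 2.46 ± 0.35 with 33.5, 48.0, 40.4 and 67.0 CPM in BAM and 278, 195, 272 and 293 CPM in microglia, and Mertk by 1.07 ± 0.14. Pros1, which encodes a bridging ligand of MERTK, was lower by 1.43 ± 0.15. Another bridging ligand gene is among the listed BAM markers, all of which were called higher. Havcr2, which encodes the phosphatidylserine receptor TIM-3, had 14.49, 12.3, 18.1 and 20.9 CPM in BAM and 228, 200.4, 185 and 188 CPM in microglia (-3.60 ± 0.33). Timd4, which encodes TIM-4 of the same family, went the other way with 34.0, 21.7, 18.1 and 16.9 CPM in BAM and 1.04, 0, 0.697 and 1.27 CPM in microglia (4.80 ± 0.63, adjusted p = 3.43e-07).

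Lysosomal hydrolases were lower in BAM in 15 of 33 tested genes and higher in 3 (median -0.25). Arsb, which degrades dermatan and chondroitin sulfates, had 49.0, 51.6, 54.2 and 58.3 CPM in BAM and 505, 427, 430.4 and 503 CPM in microglia (-3.13 ± 0.25, adjusted p = 6.31e-12). Lgmn, an asparagine-specific protease, had 3949, 3833, 3639 and 3675 CPM in BAM and 9143, 7067, 8175 and 7663 CPM in microglia (-1.09 ± 0.10), and the cathepsin gene Ctsz was lower by 1.39 ± 0.14. Lipid handling leaned the same way, 8 of 18 tested lower (5 with no filter on low counts) and 1 higher (median -0.32). Lpl, the lipase that frees fatty acids from lipoproteins, had 85.8, 80.8, 73.3 and 80.2 CPM in BAM and 677, 510.4, 515 and 554 CPM in microglia (-2.82 ± 0.13), and Abcg1, which exports cholesterol, was lower by 2.19 ± 0.25. The fatty acid carrier Fabp5 was lower by 1.58 ± 0.25 and the galectin Lgals3 by 1.80 ± 0.33. The member called higher was Pltp, which transfers phospholipids between lipoproteins, with 89.6, 121, 107 and 104 CPM in BAM and 9.43, 14.4, 11.9 and 13.3 CPM in microglia (3.11 ± 0.24). Of 24 tested genes of sterol and fatty acid synthesis, 4 were called lower (2 without BAM replicate 3, 7 with the pairs as a block; median -0.29), led by the desaturase Scd2 (-1.80 ± 0.28) and the cholesterol enzyme Dhcr7 (-0.89 ± 0.17).

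Complement genes were called in both directions. Of 16 tested, 5 were called higher and 2 lower (median -0.02). Cfp, which encodes properdin, the stabiliser of the alternative pathway, had 247, 281, 232 and 256 CPM in BAM and 33.1, 19.6, 38.0 and 37.0 CPM in microglia (2.99 ± 0.30), and C2, a component of the classical pathway, was higher by 3.22 ± 0.36. Vsig4, the complement receptor of tissue-resident macrophages, had 81 counts over the BAM libraries and 0 over the microglia libraries, at least 20.9-fold higher at a floor of 3 counts over the microglia group, although its level was low. Itgb2, the shared chain of the complement receptors CR3 and CR4, was lower by 1.72 ± 0.14, and Cr1l, a regulator of C3 convertase, by 0.53 ± 0.12.

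Sensors of microbial products were called in both directions. Of 16 tested Toll-like receptor genes and partners, 4 were called higher and 6 lower (median -0.35). Tlr5, the flagellin receptor, had 104, 106, 90.4 and 90.4 CPM in BAM and 8.72, 2.22, 6.06 and 8.04 CPM in microglia (3.94 ± 0.60), and Tlr8, an endosomal sensor of single-stranded RNA, was higher by 3.05 ± 0.36. Tlr3, the sensor of double-stranded RNA, was lower by 2.18 ± 0.32. Cd180, a relative of TLR4, was lower by 1.94 ± 0.15, and Unc93b1, the chaperone of endosomal Toll-like receptors, by 0.58 ± 0.10.

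Interferon response genes were called higher in BAM in 10 of 25 tested, with a median of 0.70. Oas2, which makes the second messenger that activates RNase L, had 213, 190.1, 187 and 175 CPM in BAM and 16.4, 13.8, 37.1 and 39.6 CPM in microglia (2.84 ± 0.30, adjusted p = 3.63e-09). Its relatives Oas1a and Oasl2 were higher by 1.74 ± 0.25 and 1.78 ± 0.28. Trim30a was higher by 0.81 ± 0.13 and Xaf1, a pro-apoptotic interferon target, by 1.31 ± 0.25. Oas and Oasl genes are near-identical relatives in part, so reads could have been split among them.

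Some chemokines and chemokine receptors were called higher in BAM, some were called lower, and others were not called. Of 17 tested chemokines, 4 were called higher and 5 lower (median -0.71). Pf4, called higher, is not among the 17 and is counted with the BAM markers. Ccl7 had 76.5, 84.0, 121 and 80.8 CPM in BAM and 4.45, 4.91, 7.25 and 5.71 CPM in microglia (4.02 ± 0.36), and Ccl2, another attractant of monocytes, had 363, 298, 431 and 228 CPM in BAM and 43.5, 63.6, 76.6 and 37.2 CPM in microglia (2.58 ± 0.37). Ccl6 was lower by 2.16 ± 0.21. Ccl4 had 27.8, 30.4, 68.5 and 24.0 CPM in BAM and 253, 257, 874 and 183 CPM in microglia (-3.37 ± 0.42), where microglia replicate 3 stood highest and the difference without it was -2.61. Ppbp, a second platelet chemokine beside Pf4, had 10.2, 14.3, 10.47 and 12.3 CPM in BAM and 0, 0, 0.279 and 0.106 CPM in microglia (6.87 ± 0.97, and 8.04 without microglia replicate 3). Among the 12 tested platelet and megakaryocyte markers, which include Ppbp but not Pf4, Gp9, a platelet glycoprotein, was called lower (-2.80 ± 0.98), a call lost without BAM replicate 1, 2 or 4 or microglia replicate 2, 3 or 4 (adjusted p = 0.0705 to 0.137) or with the pairs as a block (0.0559). The platelet collagen receptor gene Gp6 had 0 counts in all 8 libraries, and the platelet integrin gene Itga2b had 1.27, 1.79, 0.0862 and 0.874 CPM in BAM and 0.568, 0, 1.39 and 0.159 CPM in microglia. The 12 markers summed to 15.4 to 20.5 CPM in BAM and 8.19 to 15.5 CPM in microglia.

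Among 20 tested chemokine and chemoattractant receptors, 5 were called higher and 6 lower (median -0.22). Either count depended on single libraries, with 3 higher without BAM replicate 2 or 4 or microglia replicate 1 or 2, and 3 or 2 lower without BAM replicate 2 or 3. Ccr1, a receptor for several inflammatory chemokines, was higher by 1.25 ± 0.12, Cxcr3, a receptor for interferon-induced chemokines, by 2.78 ± 0.38, and C5ar1, the receptor for complement fragment C5a, by 1.41 ± 0.20. Cxcr2 had 1.36, 2.23, 2.33 and 2.62 CPM in BAM and 47.3, 45.4, 50.6 and 44.6 CPM in microglia. Ccrl2, which presents the attractant chemerin, had 8.51, 12.6, 45.6 and 15.4 CPM in BAM and 88.1, 56.7, 468 and 46.7 CPM in microglia (-3.003 ± 0.61), again with microglia replicate 3 highest, and a difference of -1.64 (adjusted p = 0.0247) without that library and -3.76 without BAM replicate 3.

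Of 22 tested interleukins and TNF family ligands, 3 were called higher and 8 lower (median -0.55). Il1a had 2.31, 4.74, 8.02 and 5.25 CPM in BAM and 114, 71.9, 257 and 83.6 CPM in microglia (-4.69 ± 0.58, adjusted p = 9.82e-08). Tnf had 3.85, 1.90, 10.1 and 5.54 CPM in BAM and 13.9, 12.9, 118 and 13.4 CPM in microglia (-2.88 ± 0.53), and without microglia replicate 3 the difference was -1.32 (adjusted p = 0.0117). The higher members were Il15 and Il18, cytokines that act on lymphocytes, by 1.57 ± 0.25 and 1.41 ± 0.28, and Tnfsf18, the ligand of GITR, with 86.6, 95.4, 65.5 and 75.0 CPM in BAM and 9.38, 9.25, 5.29 and 8.99 CPM in microglia (3.29 ± 0.42). Without both replicate 3 libraries, the counts of higher and lower members were 3 and 4 for chemokines and 3 and 5 for interleukins and TNF ligands, and without microglia replicate 3 alone 5 of these ligands were lower.

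Paired and inhibitory receptors of the immunoglobulin and lectin families were lower in BAM in 13 of 23 tested genes and higher in 5, with a median of -1.18. Lair1, a collagen receptor, had 32.7, 40.3, 31.3 and 50.5 CPM in BAM and 669.8, 628, 759 and 637 CPM in microglia (-4.12 ± 0.24, adjusted p = 7.18e-15). Vsir, which encodes the checkpoint protein VISTA, had 361, 389.7, 305 and 343 CPM in BAM and 1183, 1054, 1129.8 and 1034 CPM in microglia (-1.65 ± 0.12). Siglech, a sialic acid-binding lectin that marks microglia, was lower by 3.84 ± 0.24. On the BAM side Cd200r1, the receptor for the neuronal protein CD200, had 192, 184, 150.3 and 149 CPM in BAM and 38.9, 28.0, 30.2 and 29.8 CPM in microglia (2.41 ± 0.21), and Lilrb4a was higher by 1.81 ± 0.23.

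Of 10 tested MHC class II genes, 4 were called lower in BAM (median -1.13). All 4 encode the peptide-loading machinery and not the presenting chains. H2-DMa had 4.80, 7.09, 5.86 and 8.94 CPM in BAM and 44.0, 79.5, 92.2 and 72.9 CPM in microglia (-3.43 ± 0.43), and H2-DMb1, H2-DMb2 and H2-Oa were lower by 2.12 ± 0.29, 3.04 ± 0.54 and 3.39 ± 0.84. Of 15 tested class I genes, 2 were called lower, the chaperone Calr by 0.84 ± 0.12 and the peptide trimmer Erap1 by 1.04 ± 0.16 (median -0.18). With the pairs as a block 2 class I genes were higher, and without microglia replicate 3 there was 1 higher gene of each class.

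Immediate early genes, which cells switch on within minutes of stimulation or handling, were lower in BAM in 12 of 20 tested and higher in 1 (0 without microglia replicate 1, 2 with the pairs as a block), with a median of -1.17. Egr1, a zinc finger factor, had 54.3, 91.5, 135 and 93.8 CPM in BAM and 826, 936, 1300.4 and 559 CPM in microglia (-3.27 ± 0.32, adjusted p = 5.41e-10). Junb, an AP-1 factor, had 161, 194, 398 and 195 CPM in BAM and 939.9, 956, 2160.3 and 748 CPM in microglia (-2.34 ± 0.38). Atf3, a stress-induced factor, had 35.9, 29.7, 187 and 32.8 CPM in BAM and 341, 350.4, 1150.2 and 161 CPM in microglia (-2.81 ± 0.55). Microglia replicate 3 was the highest of the 8 libraries for these 3 genes, and BAM replicate 3 was the highest BAM library for each. Egr2 was lower by 2.27 ± 0.38 and Btg2, an antiproliferative gene, by 1.501 ± 0.27. Without both replicate 3 libraries, 1 immediate early gene was called higher and 9 were called lower, and without microglia replicate 3 alone 7 were lower. The difference of Atf3 was -1.99 (adjusted p = 0.00534) without microglia replicate 3 and -3.93 without BAM replicate 3. Whether dissociation and sorting, which both populations went through, changed these levels was not tested.

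**Figure D3:**
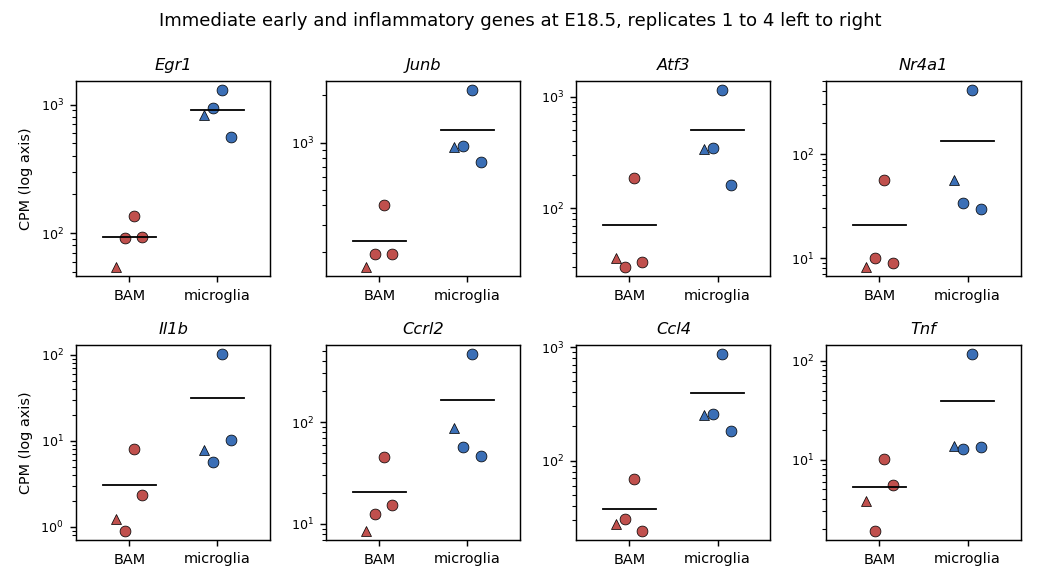
Level in CPM (log axis) of immediate early and inflammatory genes in each E18.5 library, with BAM left of microglia for each gene, replicates 1 to 4 from left to right with a bar at each mean and the R10 library as a triangle. For Egr1 the BAM libraries stand at 54.3 to 135 CPM, against 559 to 1300.4 CPM in microglia, and microglia replicate 3 is the highest.

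Glycolysis was lower in BAM across much of the pathway, in 13 of 21 tested genes against 2 higher, with a median of -0.53. Slc16a3, the lactate exporter MCT4, had 28.4, 21.4, 38.0 and 29.9 CPM in BAM and 323, 166, 276 and 230.2 CPM in microglia (-3.08 ± 0.21, adjusted p = 1.34e-13). Pfkfb3, which makes the activator of phosphofructokinase, had 104, 115, 116 and 93.7 CPM in BAM and 405, 306, 518 and 365 CPM in microglia (-1.89 ± 0.16). Pkm, the pyruvate kinase, had 717, 682, 738 and 692 CPM in BAM and 2156, 1445, 1892 and 1618 CPM in microglia (-1.33 ± 0.12). For these 3 genes the libraries of the populations did not overlap. Ldha, lactate dehydrogenase, was lower by 1.04 ± 0.13 and Pgk1, phosphoglycerate kinase, by 0.79 ± 0.12.

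Neighbouring routes of carbon leaned the same way. Of 7 tested pentose phosphate genes, 3 were called lower (median -0.58): transketolase Tkt by 0.69 ± 0.11, Pgd by 0.58 ± 0.11 and Taldo1 by 0.82 ± 0.20. Phgdh, the enzyme that diverts glycolytic carbon to serine, had 39.8, 63.9, 52.1 and 87.5 CPM in BAM and 604, 469.9, 443 and 478 CPM in microglia (-3.04 ± 0.18, adjusted p = 6.39e-15), and Psat1, the next enzyme, had 63.2, 57.0, 49.8 and 51.9 CPM in BAM and 329, 272, 234 and 246 CPM in microglia (-2.29 ± 0.14). The amino acid transporters Slc7a7 and Slc1a5 were lower by 1.04 ± 0.11 and 1.01 ± 0.16, while Asns, asparagine synthetase, was higher by 1.23 ± 0.19. In all, 7 of 16 tested genes of serine and amino acid metabolism were lower and 1 higher (2 with the pairs as a block; median -0.38).

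Nuclear genes of respiration and of translation did not share that lean. Over all tested genes, 6.7% were called higher and 8.75% lower, and the lists below had few calls. Of 25 tested nuclear genes of oxidative phosphorylation, 1 was called higher and 1 lower (median 0.02), namely Cox7a2 (0.72 ± 0.24) and Cycs (-0.61 ± 0.12). The call of Cox7a2 was lost without BAM replicate 1 or 3 or microglia replicate 2 or 4 (adjusted p = 0.0747 to 0.205). Of the 13 mitochondrially encoded genes 11 had a negative difference (median -0.26), 0 were called by edgeR, and 3 had an unadjusted p under 0.05. DESeq2 called 0 of them. Of 27 tested ribosomal protein genes 3 were higher and 1 lower (median 0.15), but 0 or 1 were higher without BAM replicate 1, 2 or 3 or microglia replicate 1, 2 or 4. Of 13 heat shock genes Hsp90ab1 was higher by 0.37 ± 0.09 and Hsp90aa1 lower by 0.49 ± 0.12 (median -0.14). With the pairs as a block, 2 genes of oxidative phosphorylation were higher and 2 lower, 4 mitochondrially encoded genes were lower, 5 ribosomal protein genes were higher, and 2 heat shock genes were higher and 3 lower.

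**Figure D4:**
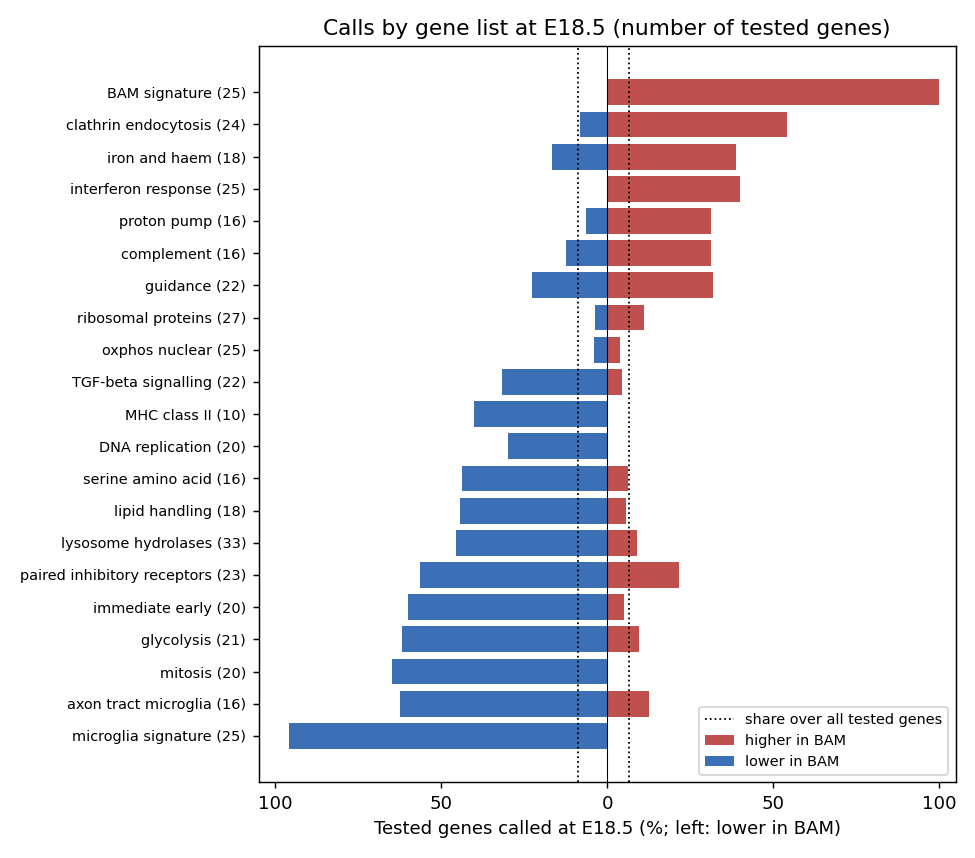
Percent of the tested genes of each list called higher in BAM (right of 0) or lower (left of 0) at E18.5, with the number tested in brackets and dotted lines at the shares over all tested genes, 6.7% higher and 8.75% lower. The longer bar is on the right for clathrin endocytosis (13 higher, 2 lower), interferon response (10 higher) and iron handling (7 and 3). It is on the left for glycolysis (2 and 13), paired and inhibitory receptors (5 and 13) and immediate early genes (1 and 12).

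Adhesion genes were also called both ways. Of 24 tested, 4 were called higher and 9 lower (median -0.41). Itga4, a chain of the receptor for VCAM-1 and fibronectin, had 126, 98.9, 104.5 and 88.7 CPM in BAM and 22.9, 20.6, 17.6 and 27.7 CPM in microglia (2.23 ± 0.18), and Cd44, a hyaluronan receptor, 217, 150.5, 141 and 132 CPM in BAM and 47.9, 43.8, 41.0 and 47.1 CPM in microglia (1.83 ± 0.15). Icam1, a ligand of leukocyte integrins, had 26.2, 21.3, 25.3 and 24.7 CPM in BAM and 134, 125, 208 and 135 CPM in microglia (-2.63 ± 0.17). The tetraspanin Cd9 was lower by 3.92 ± 0.28 and F11r, of tight junctions, by 4.13 ± 0.37.

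Guidance molecules, named for steering axons and vessels, were called higher in 7 of 22 tested and lower in 5 (median 0.87). Sema6d had 165, 165, 126 and 132 CPM in BAM and 11.2, 14.1, 12.1 and 14.4 CPM in microglia (3.51 ± 0.32), and Sema4d 56.6, 53.5, 48.3 and 62.0 CPM in BAM and 498, 317, 354 and 373 CPM in microglia (-2.81 ± 0.22). The semaphorin receptors Plxnd1 and Plxnc1 were higher by 2.09 ± 0.20 and 1.86 ± 0.19, and Plxdc2, a plexin-domain protein, was lower by 4.31 ± 0.42. Proteases that cut matrix and membrane proteins moved both ways: Mmp9, a gelatinase, had 86.4, 80.9, 77.5 and 114 CPM in BAM and 4.07, 0.578, 4.74 and 4.44 CPM in microglia (4.66 ± 0.56), Adam8 was higher by 3.27 ± 0.41 and Adam19 by 3.32 ± 0.23, while Adam10, the alpha-secretase, was lower by 1.26 ± 0.14. By count, 5 of 20 tested metalloproteases were higher and 4 lower (median 0.49).

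Signalling at the membrane also differed by receptor. Of 17 tested purinergic genes, 5 were called higher (3 without microglia replicate 3 or 4) and 4 lower (median 0.34). P2rx4, an ATP-gated channel, was higher by 1.34 ± 0.11, and Cd38, which consumes NAD, had 201, 164, 135 and 168 CPM in BAM and 23.9, 5.20, 9.96 and 14.3 CPM in microglia (3.62 ± 0.37). Adora3, an adenosine receptor, had 2.63, 3.35, 2.07 and 3.16 CPM in BAM and 52.3, 38.1, 42.2 and 43.0 CPM in microglia (-3.97 ± 0.38). P2rx1 was lower by 3.16 ± 0.32 and Entpd1, which encodes the ectonucleotidase CD39, by 0.94 ± 0.10. Of 20 tested ion channel genes, 3 were higher and 8 lower (median -0.68), with 4 or 5 lower without BAM replicate 1, 3 or 4 or microglia replicate 3 or 4. Trpv4, a channel opened by stretch and warmth, had 118, 132, 114 and 129 CPM in BAM and 20.9, 18.02, 21.3 and 20.5 CPM in microglia (2.61 ± 0.20), and Kcnk13, the THIK-1 channel that sets the resting potential of microglia, had 38.8, 23.5, 26.6 and 29.0 CPM in BAM and 169, 144, 132 and 143 CPM in microglia (-2.32 ± 0.22). The potassium channel subunit Kcnab2 was higher by 2.52 ± 0.17, and the proton channel Hvcn1 and Trpv2 were lower by 1.65 ± 0.19 and 0.87 ± 0.11. Among 12 tested RGS genes, brakes on G proteins, 2 were higher and 2 lower (median 0.16), with Rgs14 higher by 1.17 ± 0.24 and Rgs1 lower by 3.12 ± 0.44 opposite Rgs18. Rgs2 was lower by 0.77 ± 0.19.

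Genes of coagulation followed F13a1 only in part, 3 of 18 tested higher and 2 lower (median 0.04). The shares were 16.7% and 11.1%, against 6.7% and 8.75% over all tested genes. F13a1 itself is counted among the BAM markers and not in this list. Thbd, which encodes thrombomodulin, was higher by 3.15 ± 0.50, Plau, the urokinase, by 2.11 ± 0.27, and Anxa5, which shields phosphatidylserine, by 1.53 ± 0.19. Thbs1, which encodes thrombospondin 1, had 0.272, 0.893, 8.96 and 5.59 CPM in BAM and 34.3, 28.0, 57.1 and 45.5 CPM in microglia (-3.38 ± 0.55, and -4.19 without BAM replicate 3).

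Among 30 tested transcription factors of macrophages, 7 were called higher and 10 lower (median -0.26). Tfec, of the MiT family, had 80.9, 84.7, 71.4 and 70.3 CPM in BAM and 32.4, 27.6, 21.2 and 21.0 CPM in microglia (1.59 ± 0.15), and its relative Tfeb, a driver of lysosome genes, was lower by 1.59 ± 0.26. Etv1, an ETS factor, had 198, 171, 152 and 181 CPM in BAM and 61.5, 47.7, 35.0 and 42.4 CPM in microglia (1.91 ± 0.19), and Maf, a factor of mature macrophages, was higher by 1.04 ± 0.17. Irf8, which myeloid cells need, was lower by 0.58 ± 0.10. Of 15 tested genes with fetal or imprinted expression, 4 were higher and 1 lower (median 0.08). Only 2 were higher without BAM replicate 4 or microglia replicate 1 or 3, and the lower call was lost without BAM replicate 1, 2 or 4 or microglia replicate 2, 3 or 4. Igf2bp1, an RNA-binding protein of fetal tissue, had 49.1, 39.9, 42.3 and 39.5 CPM in BAM and 10.2, 9.44, 7.59 and 13.96 CPM in microglia (2.04 ± 0.17), and the imprinted RNA H19 had 71.3, 77.7, 88.1 and 71.1 CPM in BAM and 3.32, 16.48, 6.62 and 9.46 CPM in microglia (3.12 ± 0.37).

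Of 16 tested genes known from the microglia of developing axon tracts in the mouse, 10 were called lower in BAM and 2 higher (median -1.69). Lpl, Cd9, Csf1 and the cathepsin gene Ctsl were among the lower ones, Ctsl with 659.8, 768, 684 and 753 CPM in BAM and 3760.2, 3003, 3302 and 3062 CPM in microglia. Lgals1, a galectin, went the other way with 121, 107, 115 and 79.2 CPM in BAM and 10.9, 10.2, 15.95 and 11.6 CPM in microglia (3.11 ± 0.28).

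Genes of mitosis were mostly lower in BAM at E18.5. At that stage 13 of 20 tested mitosis genes and 6 of 20 tested DNA replication genes were called lower in BAM, with medians of -0.59 and -0.23, and 3 DNA replication genes were called lower without microglia replicate 1. With the pairs as a block 1 DNA replication gene was higher. At E16.5 the medians were 0.45 and 0.40, and 7 genes of each list were called higher in BAM, where 7.09% of all tested genes were called higher and 6.74% lower. The mitosis median was 0.00 at E10.5, 0.25 at E11.5, 0.36 at E12.5 and -0.08 at E14.5, so E18.5 was the stage with the lowest value of the 6. No library is shared between stages.

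Tested directly, the difference between the populations had changed in 44 genes (0.199% of those tested), 2 of them towards BAM (a positive change, 0.00907%) and 42 towards microglia (a negative change, 0.19%). A negative change is not always a narrower gap. By the sign of the estimates alone, 35 of the 42 had BAM above microglia at E16.5 and below at E18.5. Another 5 had BAM below at both stages and further below at E18.5, and 2 had BAM above at both. Of the 42, 18 were called higher in BAM at E16.5, and 9 were not called at E18.5. Over all tested genes, 8 were called higher in BAM at E16.5 and lower at E18.5. With the pairs as a block 110 genes were called, 10 with a positive and 100 with a negative change, and all 44 were among them. With the compared groups fitted alone 5 were called, 4 of them among the 44. All 20 mitosis genes had a negative change, 8 of them called (13 with the block, 1 with the compared groups alone), with a median of -0.99 against 0.07 over all tested genes. All 20 DNA replication genes did as well, 4 of them called (10 with the block, 0 with the compared groups alone), with a median of -0.81. The 2 with a positive change were Ahnak, a giant scaffold protein (1.61 ± 0.36, adjusted p = 0.0431), and Zfp704, a zinc finger gene (1.07 ± 0.23).

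Nek2, a kinase of the centrosome, had the most negative change of the called genes. It averaged 34.7 ± 2.29 CPM in E16.5 BAM and 24.5 ± 2.73 CPM in E16.5 microglia (SD, n = 3 each). At E18.5 it had 31.8, 19.03, 22.5 and 27.3 CPM in BAM and 81.9, 43.3, 48.1 and 59.5 CPM in microglia. The difference between the populations changed by -1.71 ± 0.28 (adjusted p = 0.00366). Plk1, the kinase that drives entry into mitosis, averaged 64.7 ± 19.6 CPM in E16.5 BAM and 42.3 ± 4.35 CPM in E16.5 microglia, and at E18.5 had 77.1, 47.5, 45.5 and 39.01 CPM in BAM and 109.9, 69.0, 78.1 and 93.7 CPM in microglia (change -1.36 ± 0.25). Ccnb1, which encodes cyclin B1, averaged 106 ± 21.7 CPM in E16.5 BAM and 85.1 ± 9.78 CPM in E16.5 microglia, and at E18.5 had 133, 83.3, 71.4 and 80.1 CPM in BAM and 249, 162, 173 and 153 CPM in microglia (change -1.32 ± 0.24). BAM averaged above microglia at E16.5 for all 3, where the difference was called for Plk1 alone, and below microglia at E18.5, where it was called for each. Pbk, a mitotic kinase, changed by -1.32 ± 0.23, Ncapg, of the condensin that compacts chromosomes, by -1.26 ± 0.25, and Shcbp1, a protein of dividing cells, by -1.51 ± 0.32.

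Replicate 1, the R10 library, was the highest of its group in BAM and in microglia alike for Nek2, Plk1, Ccnb1, Pbk, Ncapg and Shcbp1. In the R8 libraries of E18.5 alone, 38 genes were called, each with a negative change, and 29 of them were among the 44. Without microglia E16.5 replicate 2 there were 13 calls and without replicate 1 of that group 25, without BAM E16.5 replicate 1, 2 or 3 there were 28, 23 and 11, without BAM E18.5 replicate 1, 2, 3 or 4 there were 70, 25, 20 and 21, and without microglia E18.5 replicate 1 there were 18.

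Not all genes with a negative change belong to the cell cycle, and for some the gap had widened. Lpl averaged 140.1 ± 11.47 CPM in E16.5 BAM and 363 ± 17.0 CPM in E16.5 microglia, against the E18.5 levels given above, a change of -1.45 ± 0.18 (adjusted p = 5.97e-05). Its log2 difference was -1.37 at E16.5, so BAM lay further below microglia at E18.5. The same held for Pkm, with -0.41 at E16.5 and a change of -0.92 ± 0.18. Ndc1, a nuclear pore protein, stood at 0.13 at E16.5 and changed by -1.42 ± 0.27. Ighm, annotated as the constant part of the immunoglobulin M heavy chain, had 53.6, 69.2, 61.1 and 64.2 CPM in BAM and 847, 631, 736 and 679.8 CPM in microglia at E18.5, the smallest adjusted p of the named genes (-3.54 ± 0.13, adjusted p = 5.34e-20), and changed by -0.88 ± 0.18 from -2.67 at E16.5. The B cell gene Cd79a did not exceed 1 CPM in any of the 8 libraries, and Cd79b stood at 45.1, 76.8, 65.2 and 60.7 CPM in BAM and 83.5, 93.5, 116 and 106 CPM in microglia (-0.69 ± 0.20), a call lost without BAM replicate 1 or microglia replicate 3 (adjusted p = 0.0716 and 0.0534).

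**Figure D5:**
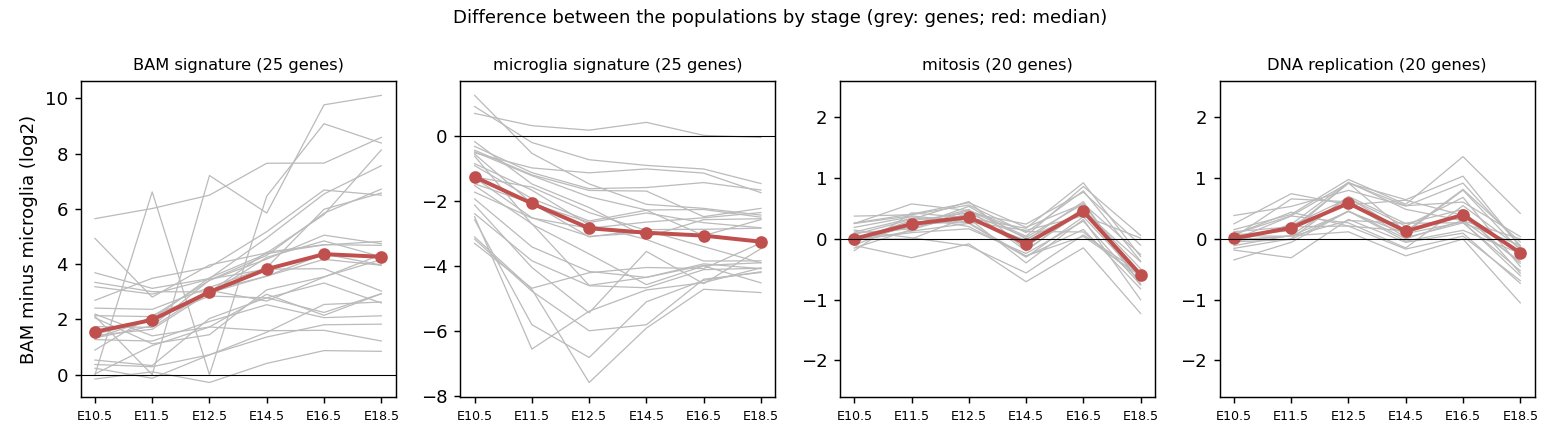
Log2 difference, BAM minus microglia, of the genes of 4 lists (grey lines) and their median (red) at each of the 6 stages, from E10.5 to E18.5, with a gene that had no counts at a stage drawn at 0. The mitosis list lies at 0.45 at E16.5 and -0.59 at E18.5, while the BAM marker list lies at 4.36 and 4.27.

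Genes of the G1 phase were mixed, 3 of 16 tested higher (5 with the pairs as a block) and 3 lower (median 0.11). Cdk6 had 80.9, 76.9, 98.7 and 72.8 CPM in BAM and 200.2, 214, 206 and 176 CPM in microglia (-1.27 ± 0.12), and Ccnd1, which encodes cyclin D1, its partner, 341, 228, 246 and 268 CPM in BAM and 125, 96.2, 107 and 115 CPM in microglia (1.29 ± 0.15). Ccne1, the cyclin of entry into S phase, was lower by 1.37 ± 0.18, and Ccnd3 and E2f1 were higher by 0.65 ± 0.14 and 0.87 ± 0.17. Bub1, Top2a, Aurka and Cenpe of mitosis were lower by 1.23 ± 0.17, 0.76 ± 0.12, 0.82 ± 0.14 and 0.61 ± 0.12, and Rrm2, Mcm5 and Mcm3 of DNA synthesis by 1.05 ± 0.15, 0.60 ± 0.12 and 0.73 ± 0.15.

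Transcripts of other cells were present at low levels, and several lists leaned to BAM although few of their markers were called. The difference was positive for all 12 neuron markers (median 1.10) and all 11 tested mural and fibroblast markers (0.99). It was also positive for 8 of 10 choroid plexus markers (1.28) and all 8 tested mast cell markers (2.47). For 8 neuron markers every BAM library lay above every microglia library, against 9.76% of all tested genes. Erythroid (3 of 11 positive, -0.39) and monocyte markers (5 of 10, -0.26) did not share that lean. The 12 neuron markers summed to 253 to 470.0 CPM in BAM and 107 to 207 CPM in microglia, and 1 of them, Gap43 of growing axons, was called higher (1.15 ± 0.37). That call was lost without BAM replicate 2 or 4 or microglia replicate 1 (adjusted p = 0.0598 to 0.144), while 7 neuron markers were called higher when the compared groups were fitted alone and 4 with the pairs as a block. The 12 mural and fibroblast markers summed to 211 to 718 CPM in BAM and 143 to 262 CPM in microglia. Of the 11 tested, 0 were called by edgeR, 2 had an unadjusted p under 0.05 and DESeq2 called 0. The collagen gene Col3a1, called with the compared groups alone (adjusted p = 0.0352), had 64.9, 69.2, 145 and 183 CPM in BAM and 46.1, 80.6, 46.0 and 57.3 CPM in microglia. The 10 choroid plexus markers summed to 22.8 to 127 CPM in BAM and 18.7 to 49.1 CPM in microglia, and Enpp2, which encodes autotaxin, was called higher (1.58 ± 0.35). Ttr, the choroid plexus carrier of thyroid hormone, had 2.54, 54.4, 44.3 and 55.8 CPM in BAM and 5.87, 24.9, 22.3 and 26.8 CPM in microglia, lowest in replicate 1 of both. The part of these cells in the differences above was not tested.

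Endothelial markers summed to 109 to 400.5 CPM in BAM and 129 to 229 CPM in microglia. Of 12 tested, 11 had a positive difference (median 0.85). Egfl7 was called higher by 1.67 ± 0.31. Pecam1, which macrophages also express, was lower by 1.15 ± 0.29 (not called in the R8 libraries alone, adjusted p = 0.0625). Cdh5, the cadherin that defines endothelium, had 6.43, 6.25, 11.2 and 13.8 CPM in BAM and 7.06, 10.4, 7.59 and 9.20 CPM in microglia. Glial and progenitor markers summed to 139.6 to 363 CPM in BAM and 199 to 271 CPM in microglia. Of 14 tested, 12 had a positive difference (median 0.93), while Nes, which encodes nestin, was lower by 2.12 ± 0.26. Mbp of myelin was higher by 0.82 ± 0.26, not called without BAM replicate 2 or 3 or microglia replicate 3 or 4 (adjusted p = 0.0584 to 0.138), and Aldh1l1 of astrocytes by 1.38 ± 0.45, not called without BAM replicate 3 or 4 or microglia replicate 1 or 3 (0.0583 to 0.122). Erythroid markers summed to 206 to 319.8 CPM in BAM and 218 to 319.8 CPM in microglia, and the erythropoietin receptor gene Epor was higher by 1.40 ± 0.27, with 1 other gene lower under the block. Monocyte markers summed to 77.6 to 192 CPM in BAM and 60.8 to 86.9 CPM in microglia. Most of the BAM sum was fibronectin, Fn1, higher by 1.31 ± 0.38, and the monocyte genes Ccr2, Plac8 and Treml4 were lower by 2.63 ± 0.76, 2.90 ± 0.71 and 5.03 ± 1.04. The call of Fn1 was lost without BAM replicate 4 or microglia replicate 3 (adjusted p = 0.0804 and 0.0513) and that of Ccr2 without BAM replicate 2 or 3 (0.0508 and 0.0503). Plac8 was not called without both replicate 3 libraries (0.0875), and the difference of Treml4 was -5.76 without BAM replicate 4. Mast cell markers summed to 15.6 to 45.3 CPM in BAM and 6.50 to 8.9997 CPM in microglia and neutrophil markers to 1.16 to 6.70 CPM in BAM and 0.106 to 4.12 CPM in microglia, and 0 of either list were called by edgeR. At an unadjusted p under 0.05 there were 2 mast cell and 1 neutrophil markers, and DESeq2 called 0 and 0.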

How the data were processed

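Total RNA (2 ng per sample, median RNA integrity number 7.7) was amplified by a modified SMART-seq2 protocol with ERCC spike-ins, which were not used here, and sequenced as read pairs, per the labels' protocols. The submitters' processing notes name STAR, featureCounts and the build GRCm38; versions, strand and multi-mapping settings are not given in the sources used here. The deposited table holds the authors' raw counts per gene for 39 libraries of 12 groups, with 53379 gene identifiers, of which 53274 carried a symbol. In the 8 E18.5 libraries 11321 values were 2 and 4969 were 1, a pattern that counting both reads of a pair would give, and no molecular tags were used, so counting intervals cover counting error only and may be too narrow.

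Genes were filtered with filterByExpr, which kept 22061 with 99.973% of the counts. With edgeR 4.0.16 (R 4.3.3), TMM factors and 1 mean per group, all 39 libraries entered a single quasi-likelihood fit. It left 27 residual degrees of freedom, and the common dispersion gave a biological coefficient of variation of 55.08%. The contrasts were BAM minus microglia at E18.5, and that difference minus the one at E16.5. Adjusted p-values are Benjamini-Hochberg values over all tested genes, with calls at 0.05. Each standard error is the absolute log2 difference divided by the square root of its F statistic in the same fit. It is therefore approximate, above all for genes with few counts in a group. Counts were also simulated from the mean levels over all 39 libraries, with 200 changed genes. In these the E18.5 comparison recovered 44% of 2-fold and 67% of 4-fold changes with 4 false calls. The comparison of stages recovered 17% and 58% with 3 false calls.

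Deviations from the group means of the 4 pairs of adjacent library numbers correlated at 0.415, 0.108, 0.406 and 0.163 at E18.5, and those of the 3 pairs of E16.5 at 0.296, 0.237 and 0.422. As each exceeded 0.1, the numbers were taken to pair libraries, which the labels do not state. That cut does not separate the pairs from all other combinations. At E16.5, BAM replicate 1 and microglia replicate 2, which are not a pair, stood at 0.108. In runs of consecutive numbers, pairs were formed from the lowest number up. The pairing is weakest for BAM and microglia replicate 2 of E18.5: each correlated higher with replicate 3 of the other population (0.157 and 0.151), and within the R8 libraries the pair stood at 0.0484. A fit with the pairs as a block was an alternative, as were RLE factors, no filter, DESeq2 1.42.0, the compared groups alone, the library series as a covariate or alone, halved counts, a test against a 2-fold difference and leaving out each replicate. Leaving out both E18.5 replicate 3 libraries was added after seeing the data. The comparison and its gene lists were chosen with earlier results of these data known. Genes are named as the 15 largest called differences each way with average log2 CPM of at least 4, the 8 largest called changes between stages each way, and the 5 called members of each list with the smallest p, or fewer. The genes named outside that rule, Apoe, C1qb, Cd209f, Cd79a, Cdh5, Gp6, Itga2b, Ltc4s and Ttr, were chosen after their values were seen. A gene that the rule selects is not reported here. Promoters came from RefSeq on GRCm38.p6.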

Additional observations from a re-analysis of the deposited data

Results flagged for a closer look

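Within the 4 libraries of a population, 35 of the 454 gene and population combinations named in the report had a highest or lowest library that stood apart from the other 3 by more than the 95% critical value of Dixon's ratio, where chance alone gives about 1 in 20. Microglia replicate 1 accounted for 11 of them and microglia replicate 3 for 9.

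Microglia replicate 3 was highest for Junb (2160.3 CPM), Tnf (118 CPM), Ccl4 (874 CPM), Ccrl2 (468 CPM), Icam1 (208 CPM), Gpr84 (280.3 CPM), Clec4a2 (74.7 CPM) and Ctsz (3993 CPM), and lowest for Tnfsf18 (5.29 CPM). BAM replicate 3 was highest for Junb (398 CPM), Atf3 (187 CPM), Ccl4 (68.5 CPM) and Ccl7 (121 CPM), and lowest for Mrc1 (7733 CPM) and Cr1l (71.6 CPM). Adjacent library numbers link these libraries.

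Microglia replicate 1, of the R10 series, was highest for Adam10 (568 CPM), Clec5a (177 CPM), Eps15 (204 CPM), Ncoa4 (277 CPM), Scarb1 (326 CPM), Scarb2 (521 CPM), Ndc1 (151 CPM), Mcm5 (243 CPM) and Shcbp1 (82.4 CPM), and lowest for Gap43 (5.83 CPM). It also held the Cd209f counts of that group (0.0947 CPM). BAM replicate 1 was highest for Ccr1 (231 CPM) and lowest for Blvra (189 CPM) and Il18 (53.0 CPM). BAM replicate 2 was highest for Lrp1 (437 CPM) and Slc48a1 (169 CPM) and lowest for Tlr3 (6.36 CPM). BAM replicate 4 was highest for Scd2 (249 CPM) and Tmem119 (72.3 CPM), and microglia replicate 2 was lowest for Mmp9 (0.578 CPM).

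The difference between BAM and microglia changed between E16.5 and E18.5, by a test of that change, in 17 of the named genes. The change, as a signed log2 difference of BAM minus microglia, was positive for Ahnak (1.61) and Zfp704 (1.07). It was negative for the mitosis genes Nek2 (-1.71), Plk1 (-1.36), Ccnb1 (-1.32), Pbk (-1.32), Top2a (-1.05) and Aurka (-0.98), for Shcbp1 (-1.51) and Ncapg (-1.26), and for Ccne1 (-1.26), Rrm2 (-1.05) and Mcm5 (-0.88) of S phase. It was also negative for Lpl (-1.45), Ndc1 (-1.42), Pkm (-0.92) and Ighm (-0.88).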

How the results depend on the processing

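The E18.5 comparison called 3408 genes. Leaving out any 1 of its 8 libraries gave 2879 to 3077, RLE factors, halved counts, the series covariate and the block each stayed within 1.5 times of it, and so did the R8 libraries alone, the compared groups alone, no filter and DESeq2. The R10 pair alone called 1051 (487 higher, 564 lower), with 1 library a side assumed to vary like the other groups, and a test against a 2-fold difference 748 (370 higher, 378 lower). No named gene reversed its direction while called. Of 227 named genes, 6 lost their call in the R8 libraries alone, 62 in the R10 pair alone, 11 without both replicate 3 libraries and 1 with the block.

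The comparison with E16.5 was far less stable. Against 44 calls, the compared groups alone gave 5, the block 110 (10 positive, 100 negative changes), leaving out both E18.5 replicate 3 libraries 14, no filter 68 and DESeq2 151, and leaving out single libraries 11 to 70. Apart from construction (fewer samples, more genes), the cause was not tested. Of the 17 named genes with such a change, 17 were called with the block and 1 with the compared groups alone. The replicate block changed no other call named here at E18.5 except those of Gp9, which it ended, and C1qb, which it added. With 4 libraries a side, smaller differences may have been missed. The simulation changed 200 genes, against 3408 called here. Its shares therefore do not measure how often this comparison detects a difference of a given size.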
